A study of Mus musculus with 4 samples.

Results

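The circadian clock genes of the septal nasal mucosa were compared between young adult and aged mice. The 10 genes were *Arntl* (encoding BMAL1), *Clock*, *Per1*, *Per2*, *Per3*, *Cry1*, *Cry2*, *Nr1d1* (REV-ERBα), *Nr1d2* (REV-ERBβ) and *Dbp*, out of 45604 genes tested on the arrays. That total, and every share of all genes below, also counts array identifiers without a gene symbol as genes. Of the 45604, 10924 were well above background on 0 arrays. They were chosen by name, through the accession that the array gives for each non-control probe, and not by their measured values. Earlier results of these data were known when they were chosen. Together they had 19 probes, of which 18 were well above background on all 4 arrays, and each gene was detected on all 4 arrays. *Nr1d1* was the 1 gene of the 10 that passed the test, and it was 32.4% lower in aged mice (1.48-fold). *Per1* and *Cry2* were 21.4% and 22.6% higher in aged mice and did not pass, and *Arntl*, *Clock*, *Per2* and *Nr1d2* differed by 0.05 or less on the log2 scale. The probes of *Arntl*, *Clock* and *Per2* disagreed in sign, and those of *Per2* gave 0.32 (the brighter) and -0.22.

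In mammalian cells, BMAL1 and CLOCK form a dimer that binds E-boxes and activates the *Per*, *Cry*, *Nr1d* and *Dbp* genes. PER and CRY proteins return to the nucleus and repress that dimer, while the REV-ERB receptors repress *Arntl* through ROR response elements, so that *Nr1d1*, *Dbp* and the *Per* transcripts run in antiphase to *Arntl* over the day. Most tissues hold such clocks, the olfactory mucosa and bulb included, and transcripts of several of these genes also respond to hormones, feeding, temperature and neuronal activity.

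The samples were 2 young adult arrays, from C57BL/6J mice 8 weeks old, and 2 aged arrays, from C57BL/6J mice 16 months old. All mice were male and were kept under a light-dark cycle. Apart from the label fields on silica aspiration named below, no treatment or genetic change is given for either age. Each array carried Cy3-labelled RNA pooled from 5 mice, taken from tissue labelled olfactory epithelium. The hour at which tissue was taken is not given in the sources used here. The methods count fewer mice per age for gene analyses than would fill 2 separate pools of that size, so the pools of an age may have shared mice. The *P* values therefore measure the spread between pooled samples, which may be in part technical. The name of one label field and the text of another mention silica aspiration, the latter with lung, against the sample titles, and neither was used for grouping.

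Some windows around the transcription start of these genes are shown because they hold the sequence elements through which clock proteins act. RefSeq windows (GRCm38.p6, from 250 bases before to 50 bases after a start) were found for 9 of the 10 genes, with 13 windows in all. *Per2* was not among them. Capitals mark every match, on either strand, to 5 short motifs. The canonical E-box, bound by the BMAL1 and CLOCK dimer, was searched as CACGTG, and its weaker variant, the E′-box, as CACGTT, which reads AACGTG on the opposite strand. The D-box, bound by DBP and E4BP4, was searched as TTATGTAA, TTACATAA, TTATATAA or TTACGTAA. The element shared by the REV-ERB and ROR receptors was searched as TAGGTCA or TGGGTCA, and the cyclic AMP response element as TGACGTCA. The windows are *Nr1d1*, chr11:98775328-98775627, minus strand; *Per1*, upstream start, chr11:69098699-69098998, plus strand; *Cry2*, chr2:92434020-92434319, minus strand; *Per3*, chr4:151044616-151044915, minus strand; and *Arntl*, second start, chr7:113207261-113207560, plus strand.
Nr1d1: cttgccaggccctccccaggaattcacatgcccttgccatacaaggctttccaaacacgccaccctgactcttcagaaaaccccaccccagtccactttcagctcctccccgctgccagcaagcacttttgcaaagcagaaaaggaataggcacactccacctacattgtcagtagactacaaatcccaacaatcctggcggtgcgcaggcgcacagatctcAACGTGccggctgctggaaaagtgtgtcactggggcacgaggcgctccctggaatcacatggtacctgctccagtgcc
Per1: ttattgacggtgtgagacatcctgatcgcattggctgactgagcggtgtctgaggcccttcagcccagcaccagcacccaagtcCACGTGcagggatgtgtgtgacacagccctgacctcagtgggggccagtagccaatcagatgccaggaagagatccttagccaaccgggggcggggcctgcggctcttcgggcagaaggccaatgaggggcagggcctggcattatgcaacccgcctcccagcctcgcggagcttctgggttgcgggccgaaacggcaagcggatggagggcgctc
Cry2: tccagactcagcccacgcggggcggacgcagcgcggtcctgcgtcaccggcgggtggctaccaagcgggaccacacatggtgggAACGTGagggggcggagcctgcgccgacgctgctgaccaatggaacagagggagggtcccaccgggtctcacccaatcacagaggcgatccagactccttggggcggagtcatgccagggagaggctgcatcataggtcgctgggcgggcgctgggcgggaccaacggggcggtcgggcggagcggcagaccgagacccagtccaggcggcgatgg
Per3: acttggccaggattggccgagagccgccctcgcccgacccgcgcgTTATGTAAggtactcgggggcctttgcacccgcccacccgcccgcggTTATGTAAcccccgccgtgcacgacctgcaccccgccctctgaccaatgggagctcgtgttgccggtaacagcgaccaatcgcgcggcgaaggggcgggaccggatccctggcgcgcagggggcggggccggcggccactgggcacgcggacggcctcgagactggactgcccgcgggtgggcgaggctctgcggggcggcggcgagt
Arntl: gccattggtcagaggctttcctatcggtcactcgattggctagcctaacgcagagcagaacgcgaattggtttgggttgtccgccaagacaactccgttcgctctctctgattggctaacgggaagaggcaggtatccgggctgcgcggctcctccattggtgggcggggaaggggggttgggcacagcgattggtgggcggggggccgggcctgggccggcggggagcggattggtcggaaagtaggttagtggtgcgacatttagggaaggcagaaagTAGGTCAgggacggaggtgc

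The window of *Nr1d1* held 1 E′-box at position -28 from the start, and that of *Cry2* held 1 at position -166. The upstream window of *Per1* held 1 E-box at position -166, and the window of *Cry1*, not shown, held an E-box at position -60 and an E′-box at position -79. *Per3* had 2 D-boxes, at positions -205 and -158, and the second window of *Arntl* had the element TAGGTCA at position 30, inside the transcript. Of all 32851 windows in the table, 7.15% held the E-box, 4.68% the E′-box, 1.59% the D-box, 6.45% the REV-ERB and ROR element and 1.79% the cyclic AMP element. The windows of *Clock*, *Nr1d2* and *Dbp*, the first of *Arntl* and the second of *Per1* held none of these letters. Clock elements of these genes also lie outside such windows, and a match does not show that a protein was bound.

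Values below are normalized intensities after background correction and quantile normalization, averaged over the probes of a gene, and intensities of different genes cannot be set against each other. A gene was called when limma's moderated test gave *P* below 0.05 and an FDR below 0.25 over all 45604 genes. By this rule 1817 genes were called (3.98% of those tested), with 754 higher (1.65%) and 1063 lower (2.33%) in aged mice. Of the 10 clock genes, 1 was called, lower in aged mice, and 0 were called higher. All 10 had a mean intensity of at least 100, and among the 25513 genes that did, 5.41% were called. At an unadjusted *P* below 0.05 there were 3 of 10 (*Per1*, *Cry2* and *Nr1d1*), against 13.1% of all genes and 15.9% of those with a mean of at least 100. The median log2 fold change (aged over young adult) of the 10 genes was 0.04, and that of all genes 0.0093. With any 1 array left out, 0 genes of the whole table were called and 3288 to 5317 had an unadjusted *P* below 0.05, so every call given below, *Nr1d1* included, rests on all 4 arrays. For a single gene, an exact two-sided permutation test of 2 arrays against 2 cannot give a *P* below 0.333.

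**Figure D1:**
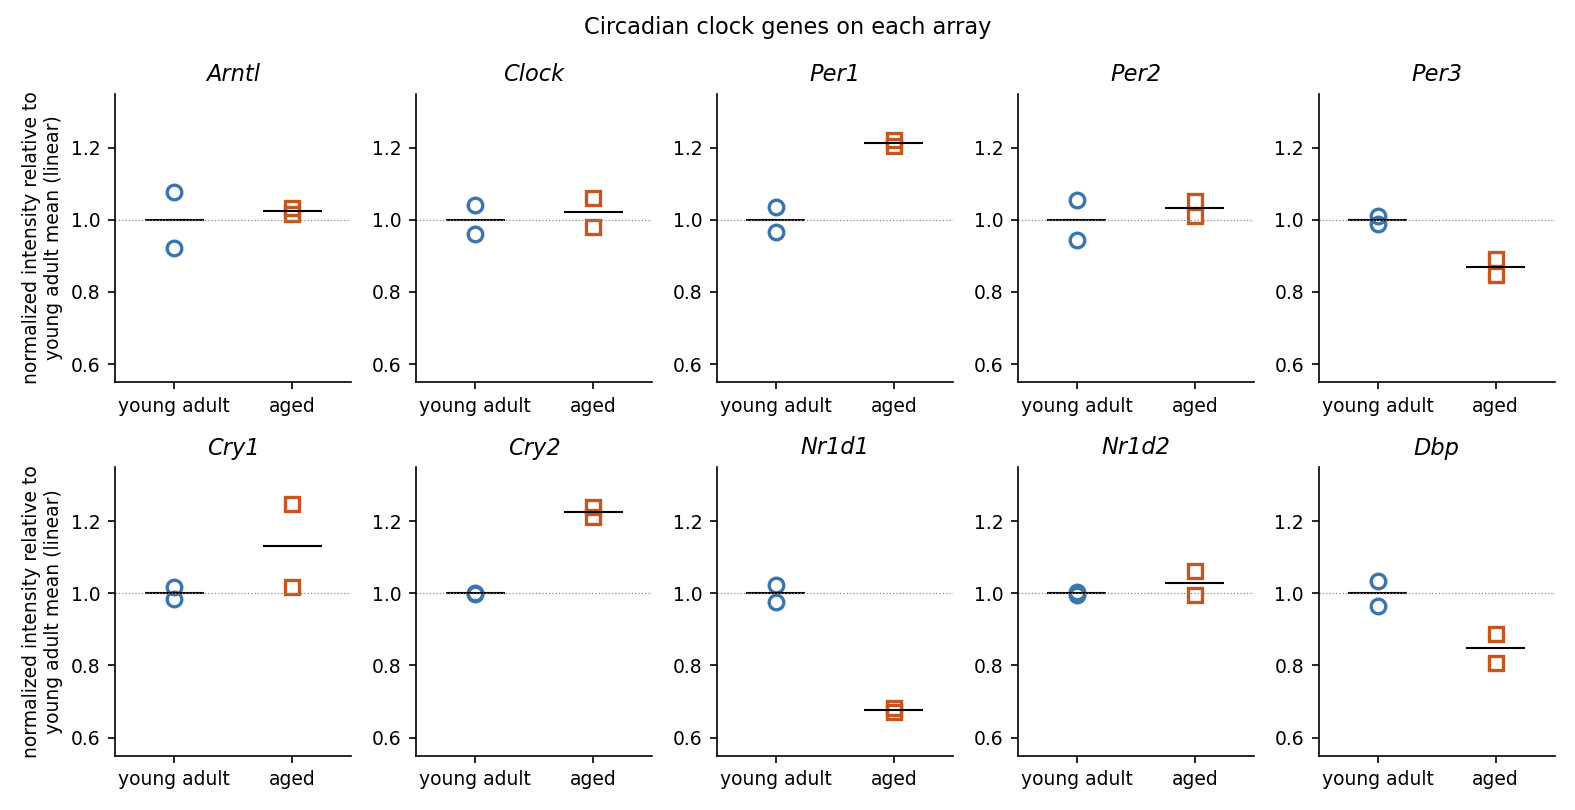
Normalized intensity of each circadian clock gene on each array, divided by the mean of the 2 young adult arrays (linear scale that does not start at 0; circles, young adult; squares, aged; bars, means). The aged arrays of *Nr1d1* lie near 0.68 of the young adult mean, those of *Per1* and *Cry2* above 1.2, and the ages overlap for *Arntl*, *Clock*, *Per2* and *Nr1d2*.

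The REV-ERB genes encode nuclear receptors that repress transcription and bind heme. *Nr1d1* measured 2132 and 2235 in the young adult pools, against 1488 and 1463 in the aged pools. Neither aged pool came near a young adult pool, and the gap between the ages was wider than the gap within either. The means were 2184 ± 73.4 (SD, n = 2) in young adult and 1476 ± 17.6 (SD, n = 2) in aged mice, giving a log2 fold change of -0.56 ± 0.0787 (SE), with a 95% interval from -0.80 to -0.33 (limma, FDR = 0.208). Of the 25513 genes with a mean intensity of at least 100, 5.57% had a larger absolute change. The fold change of 1.48 was just short of the limit of 1.5 that the study used for a differentially expressed gene. In bulk tissue, fewer cells that express a gene and less RNA per cell cannot be told apart.

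*Nr1d1* was read by 1 probe, so no second probe was at hand to set beside it. The aged array that shared a slide with a young adult array gave a log2 difference of -0.52 on that slide, and the remaining 2 arrays, each on its own slide, gave -0.61. *Nr1d1* overlaps the opposite-strand thyroid hormone receptor gene *Thra*, whose 3 probes averaged 2041 and 1962 in young adult and 1862 and 1840 in aged mice (log2 fold change -0.11 ± 0.0771, FDR = 0.611). The call on *Nr1d1* was made under all 11 other ways of processing or fitting the 4 arrays without a block, with FDR between 0.00252 and 0.231. It was lost when any 1 array was left out, where the log2 fold change stayed between -0.60 and -0.53 and the FDR between 0.409 and 0.683.

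*Nr1d2*, the paralog of *Nr1d1*, measured 2276 and 2298 in the young adult pools, against 2427 and 2277 in the aged pools. The ages overlapped. The log2 fold change was 0.04 ± 0.0817, with a 95% interval from -0.20 to 0.28 (FDR = 0.864), and its 2 probes gave 0.06 and 0.02. The interval does not reach the value of *Nr1d1*, but the difference between the paralogs was not tested.

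*Arntl* and *Clock* encode the activating dimer. *Arntl* measured 305 and 261 in the young adult pools, against 287 and 292 in the aged pools, so that both aged arrays fell between the young adult arrays. *Clock* measured 407 and 441 in young adult and 450 and 416 in aged mice, again with overlap. The log2 fold changes were 0.04 ± 0.114 (95% interval -0.30 to 0.38, FDR = 0.909) for *Arntl* and 0.03 ± 0.0966 (95% interval -0.26 to 0.32, FDR = 0.918) for *Clock*. Neither gene differed by more than the spread between arrays, and the intervals leave room for changes of about the size seen for *Per1*.

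The 3 probes of *Arntl* gave log2 differences of -0.09, 0.09 and 0.11. Those of *Clock* gave -0.23, 0.04 and 0.28, and the last of these was well above background on only 1 array. The sign of *Clock* therefore turned to -0.10 when a probe had to be well above background in both pools of 1 age or more, with an FDR of 0.389.

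The *Per* genes encode the period proteins of the repressing complex. *Per1*, which also responds acutely to glucocorticoids and cyclic AMP, measured 10907 and 10180 in the young adult pools, against 12702 and 12874 in the aged pools. Both aged arrays were higher, with a log2 fold change of 0.28 ± 0.0833 (95% interval 0.03 to 0.53, FDR = 0.345), which did not pass the FDR limit. The difference was 0.22 on the shared slide and 0.34 for the other pair of arrays. *Per1* was called higher under 5 of 11 other settings: a background offset of 50, no background correction, the scanner software's own signal with quantile normalization, dim probes left out, and an intensity trend in the fit.

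*Per2* measured 758 and 848 in the young adult pools, against 812 and 844 in the aged pools, with overlap and a log2 fold change of 0.05 ± 0.0987 (95% interval -0.25 to 0.34, FDR = 0.869). Its 2 probes went opposite ways. The brighter probe measured 4893 and 4865 in young adult and 6086 and 6056 in aged mice, a log2 difference of 0.32 without overlap, and the dimmer probe measured 117 and 148 in young adult and 108 and 118 in aged mice, a difference of -0.22 with overlap. With the brightest probe per gene in place of the mean, *Per2* had a log2 fold change of 0.32 and an FDR of 0.274, short of the limit.

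*Per3* measured 585 and 599 in the young adult pools, against 501 and 527 in the aged pools. Both aged arrays were lower, by 13.2% on average, with a log2 fold change of -0.20 ± 0.080 (95% interval -0.44 to 0.04, FDR = 0.429). Its probes gave -0.11 and -0.29, each without overlap. *Per3* passed the limits under 2 of the 11 other settings, namely dim probes left out and an intensity trend, and was lower in both.

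The cryptochromes bind and inhibit the BMAL1 and CLOCK dimer. *Cry1* measured 147 and 152 in the young adult pools, against 152 and 186 in the aged pools, and the lower aged array exceeded the higher young adult array by less than 1 unit of intensity. Its log2 fold change was 0.17 ± 0.136 (95% interval -0.24 to 0.58, FDR = 0.653), with 0.32 from one probe and 0.02 from the brighter other. *Cry2* measured 10870 and 10899 in the young adult pools, against 13497 and 13196 in the aged pools, both aged arrays higher. Its log2 fold change was 0.29 ± 0.0746 (95% interval 0.07 to 0.52, FDR = 0.306), with 0.31 on the shared slide and 0.28 for the other pair. *Cry2* did not pass the FDR limit, and was called higher under the same 5 settings as *Per1*.

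*Dbp* encodes a PAR bZIP activator that binds D-boxes and is a direct output of the dimer. It measured 23790 and 22196 in the young adult pools, against 20423 and 18561 in the aged pools. Both aged arrays were lower, by 15.3% on average, and the arrays within an age also lay apart. The log2 fold change was -0.24 ± 0.0985 (95% interval -0.53 to 0.06, FDR = 0.447), with -0.33 and -0.14 from its 2 probes and -0.22 and -0.26 from the 2 pairs of arrays. *Dbp* was called lower when dim probes were left out and with an intensity trend.

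Across the 10 genes, the ages did not overlap for 6. *Per1*, *Cry1* and *Cry2* were the 3 higher in aged mice and *Per3*, *Nr1d1* and *Dbp* the 3 lower. For *Cry1* this was close to a tie, with 151.901 on the lower aged array against 151.892 on the higher young adult array. Each of its probes overlapped between the ages. Among all genes tested, 46% did not overlap (24.2% higher and 21.8% lower), and 57.8% of those with a mean of at least 100, so that 6 of 10 is near what the table as a whole showed. Of the 19 probes, 4 were higher without overlap, 5 were lower without overlap and 10 overlapped. The probes of *Arntl*, *Clock* and *Per2* disagreed in sign.

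**Figure D2:**
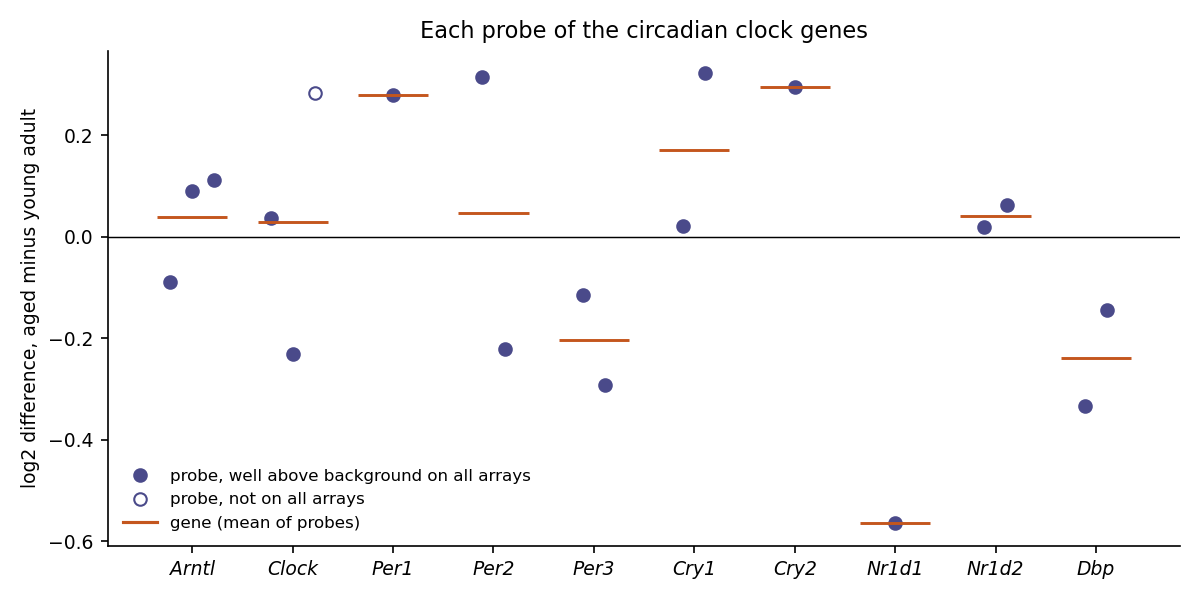
Log2 difference (aged minus young adult mean) of each of the 19 probes of the circadian clock genes, with filled circles for probes well above background on all 4 arrays, 1 open circle for the other, and a bar at the gene's value. The 2 probes of *Per2* lie at 0.32 and -0.22, while *Per1*, *Cry2* and *Nr1d1* rest on 1 probe each.

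Because the *Per*, *Nr1d* and *Dbp* transcripts run in antiphase to *Arntl*, they were set against *Arntl* and *Clock*, which encode the activating dimer. The mean of *Per1*, *Per2*, *Per3*, *Nr1d1*, *Nr1d2* and *Dbp* minus that of *Arntl* and *Clock*, on centred log2 values, was 0.04 and 0.10 in the young adult pools, against -0.08 and -0.06 in the aged pools. The aged value was lower by 0.14 on the log2 scale, against an SD within an age of 0.0361, and is given as a description without a test. That SD comes from 2 arrays per age and does not cover the spread among the genes of an arm. The 6 genes of the first arm had log2 fold changes of both signs, 3 positive and 3 negative. They ran from -0.56 to 0.28, with a mean of -0.11. The second arm had a mean of 0.03. The difference was -0.19 with *Cry1* added to the second arm, -0.05 with wider arms and -0.04 with the brightest probe of each gene. With wider arms the young adult pools gave 0.18 and -0.12, on both sides of the aged pools at -0.01 and -0.04. *Nr1d1*, at -0.56, had the lowest value in the first arm. The hour of tissue collection is not given, and whether the clock was shifted between the ages was not tested.

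Other genes tied to the clock gave a second view of the same pathway. Of 25 such genes, 24 had a named probe (*Rorb* had none), and all 24 were well above background on all 4 arrays by at least 1 probe. Among them, 1 was called higher, 0 were called lower, and the median log2 fold change was 0.06. At an unadjusted *P* below 0.05 there were 5, all higher in aged mice, *Nfil3* and *Usp2* among them, where 6.05% of all genes were higher and 7.08% lower. Of the 24, 12 were higher and 3 were lower without overlap between the ages. Over all genes the shares were 24.2% and 21.8%. The share of higher genes was thus larger in this list than over all genes, and that of lower genes smaller, a lean that was not tested. Shares by direction were not taken among genes with a mean of at least 100. In either direction, 57.8% of genes with a mean of at least 100 did not overlap.

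*Nfil3*, which encodes the bZIP repressor E4BP4 that competes with DBP for D-boxes and is itself repressed by REV-ERBα, was the gene called. It measured 1434 and 1397 in the young adult pools, against 2049 and 2084 in the aged pools. Both aged arrays were above both young adult arrays, and the arrays of an age lay close together. The means were 1415 ± 25.9 (SD, n = 2) and 2066 ± 25.1 (SD, n = 2), a 1.46-fold rise with a log2 fold change of 0.55 ± 0.0756 (95% interval 0.32 to 0.77, FDR = 0.208). The 2 probes gave 0.48 and 0.62, and the 2 pairs of arrays gave 0.52 and 0.58. Like *Nr1d1*, *Nfil3* was called under all 11 other settings without a block and lost its call when any 1 array was left out (FDR 0.409 to 0.683).

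The other D-box binding genes, *Tef* and *Hlf*, are PAR bZIP activators like *Dbp*. *Tef* had a log2 fold change of 0.09 ± 0.0888 (FDR = 0.706). *Hlf* measured 5075 and 3356 in young adult and 5399 and 4406 in aged mice, so that its 2 young adult arrays differed by more than the ages, and its log2 fold change of 0.24 ± 0.266 turned to -0.06 without the second young adult array. Neither passed the test.

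The ROR receptors activate *Arntl* through the element that REV-ERB binds. Of these, *Rora* had a log2 fold change of 0.07 ± 0.0774 (FDR = 0.740), and -0.07 with its brightest probe. *Npas2*, a paralog of *Clock*, measured 81.5 and 182 in young adult and 96.0 and 80.7 in aged mice, and its log2 fold change of -0.47 ± 0.462 (FDR = 0.712) became 0.11 without the second young adult array.

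The E-box repressors did not pass the test. *Ciart*, which encodes a repressor of the dimer, had a log2 fold change of 0.25 ± 0.0977 (FDR = 0.433), *Bhlhe41* (DEC2) one of 0.15 ± 0.0906 (FDR = 0.584) and *Bhlhe40* (DEC1) one of -0.08 ± 0.0816 (FDR = 0.723). *Usp2*, a deubiquitinase under clock control, measured 1582 and 1655 in young adult and 1964 and 1995 in aged mice (log2 fold change 0.29 ± 0.0782, FDR = 0.316). Its 2 probes each gave 0.29, and it too missed the FDR limit, but was called higher under the same 5 settings as *Per1*. *Cipc*, whose product inhibits CLOCK, had a log2 fold change of 0.23 ± 0.075 (FDR = 0.377), with 0.19 and 0.26 from its 2 probes, each without overlap, and was called higher under 3 of the 11. *Wee1*, a cell cycle kinase gene with E-boxes, had a log2 fold change of -0.12 ± 0.0777 (FDR = 0.602).

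**Figure D3:**
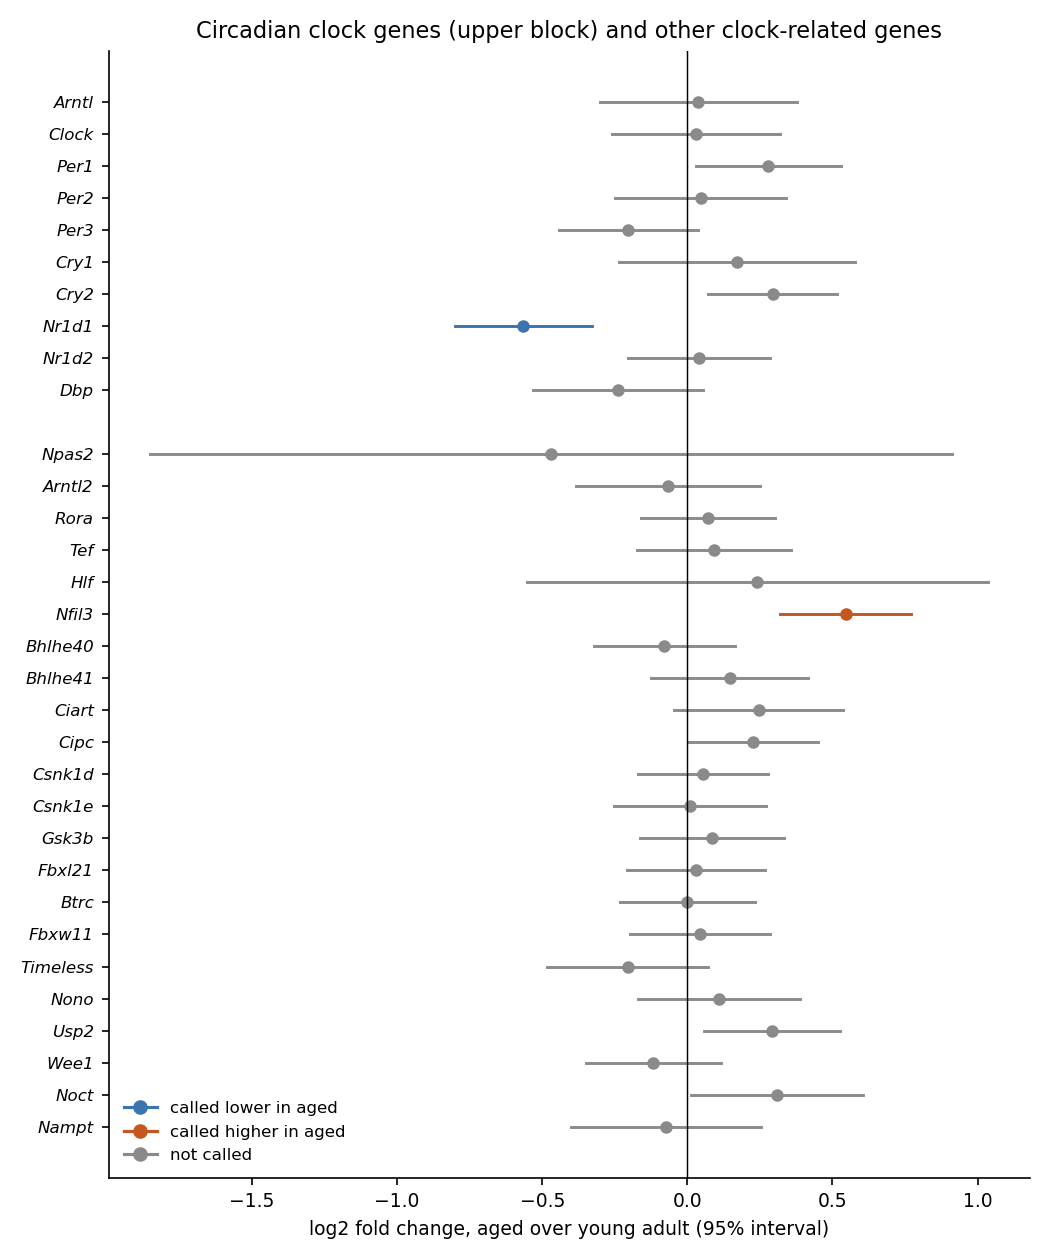
Log2 fold change (aged over young adult) with its 95% interval from the limma fit, for the 10 circadian clock genes (upper block) and other clock-related genes (lower block). Called genes are coloured: *Nr1d1* at -0.56 lies below 0 and *Nfil3* at 0.55 above it, while the intervals of *Npas2* and *Hlf* are the widest.

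By a likeness measure taken over the 4 arrays (the Euclidean distance of centred log2 values), the genes nearest to *Nr1d1* among 25512 others with a mean intensity of at least 100 were *Tnfaip8l1* (distance 0.00985), *Ccl20* (0.0197), *Aoc1* (0.0210), *Derl3* (0.0244) and *Twist1* (0.0250). Their log2 fold changes lay between -0.58 and -0.54. With 4 arrays in 2 ages, such likeness is set mostly by the size of the age difference.

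Several clock genes are also induced by signals from outside the clock, so 3 lists of such genes were set beside them. Of 11 glucocorticoid-responsive genes, 4 were called higher (1.65% of all genes were), 0 were called lower (2.33%), and the median log2 fold change was 0.29. The genes called were *Pdk4* (a kinase that limits glucose oxidation, log2 fold change 0.99 ± 0.102, FDR = 0.185), *Mt1* and *Mt2* (metallothioneins, 0.83 ± 0.0759 and 0.67 ± 0.0754) and *Fkbp5* (a chaperone of the glucocorticoid receptor, 0.80 ± 0.0804). *Fkbp5* measured 896 and 847 in young adult and 1532 and 1508 in aged mice. The aged arrays of all 4 genes were above their young adult arrays.

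Of 11 immediate early genes, which respond to cell activity and to the handling of tissue, 0 were called higher and 4 were called lower, where 2.33% of all genes were lower and 5.41% of those with a mean of at least 100 were called in either direction. They were *Atf3* (-0.78 ± 0.0863, FDR = 0.188), *Egr2* (-0.67 ± 0.125, FDR = 0.246), *Btg2* (-0.46 ± 0.0748, FDR = 0.226) and *Egr1* (-0.43 ± 0.082, FDR = 0.249), each given as its log2 fold change. All 11 had negative values, and the median was -0.41. *Atf3* measured 1833 and 1951 in young adult and 1076 and 1133 in aged mice, without overlap. These calls were less steady than that of *Nr1d1*, apart from *Atf3*: of 11 other settings *Btg2* was called under 8, *Egr1* under 9, *Egr2* under 10 and *Atf3* under 11.

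Of 7 temperature-responsive genes, 0 were called by limma, and 2 had an unadjusted *P* below 0.05, 1 in each direction. The median log2 fold change was 0.02. The largest absolute values were those of *Hspa1a*, a heat shock chaperone, at -0.34 ± 0.121 (FDR = 0.398) and *Cirbp*, a cold-inducible RNA-binding protein, at 0.31 ± 0.0861 (FDR = 0.321). Whether steroid hormone, cell activity or temperature had a part in the values of the clock genes was not tested.

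**Figure D4:**
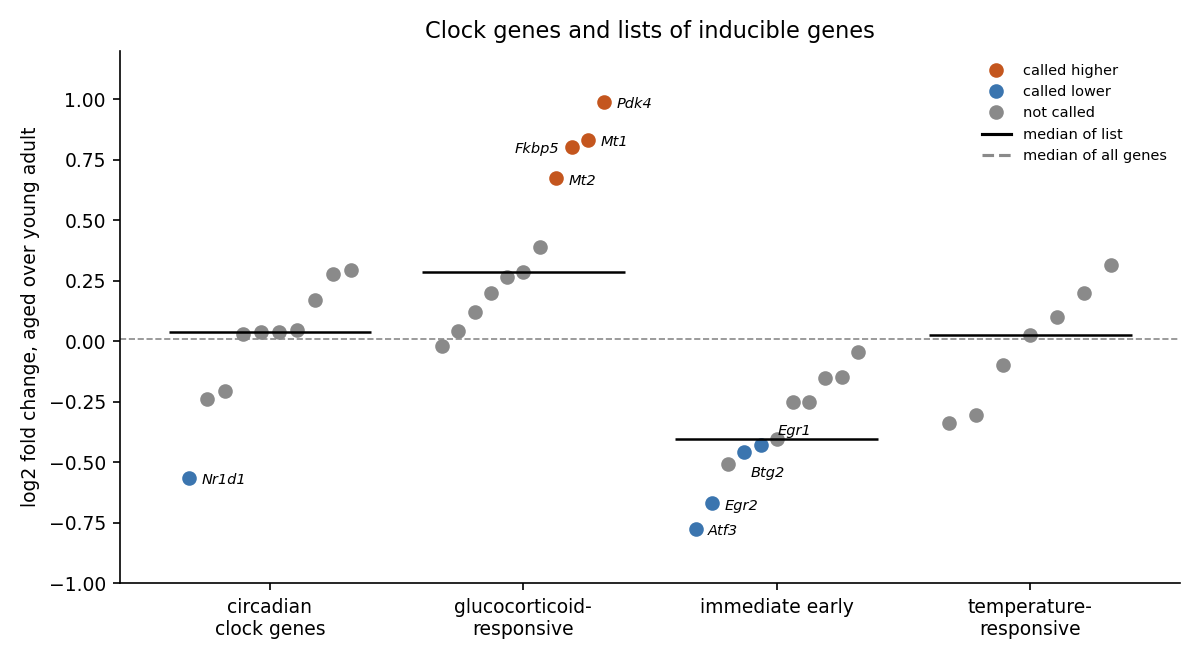
Log2 fold change (aged over young adult) of every gene in the circadian clock list and in 3 lists of inducible genes, with a bar at each list's median and a dashed line at the median of all genes. The medians are 0.04 for the clock genes, 0.29 for the glucocorticoid-responsive, -0.41 for the immediate early and 0.02 for the temperature-responsive genes, and the genes called are named.

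Markers of cell types that the tissue could hold were read in the same fit, and their summed intensity is given as the range over the pools of an age, which the brightest probes of a list largely set. Over all genes, 1.65% were called higher and 2.33% lower. All 10 markers of mature olfactory neurons were well above background on all 4 arrays, with 1 called higher and a median log2 fold change of 0.20, and their summed intensity was 573226 to 581874 in young adult and 635776 to 643532 in aged mice. Of 6 fibroblast markers, 4 were called lower (median -1.11, summed intensity 223497 to 248179 against 116395 to 124423). Lower calls also came from 3 of 6 endothelial markers (11699 to 11857 against 8155 to 8337), 2 of 6 macrophage markers (8375 to 8870 against 6787 to 6797), 3 of 4 osteoblast markers (4388 to 4450 against 2234 to 2352), 2 of 8 basal and progenitor markers (35327 to 35408 against 28685 to 29303) and 1 of 6 immature neuron markers (49628 to 50885 against 39999 to 41045). Of 6 sustentacular markers, 1 was called higher and 1 was lower at an unadjusted *P* below 0.05 in limma (826363 to 829420 against 849387 to 860952). Of 5 ciliated cell markers, 0 were called, with 1 lower at an unadjusted *P* below 0.05 (29213 to 29686 against 27348 to 27543). Of 5 pituitary markers, 2 were called higher, *Prl* and *Gh* (635 to 734 against 8814 to 8990, a sum that *Prl* largely set). The ages did not overlap for 4 of the 5, all higher (24.2% of all genes were), and the median log2 fold change was 1.67. Only 2 of the 5 were well above background on all 4 arrays, and the pituitary factor gene *Pou1f1* was so on 0 arrays. The part of cell makeup in the values of *Nr1d1* and the other clock genes was not tested.

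**Figure D5:**
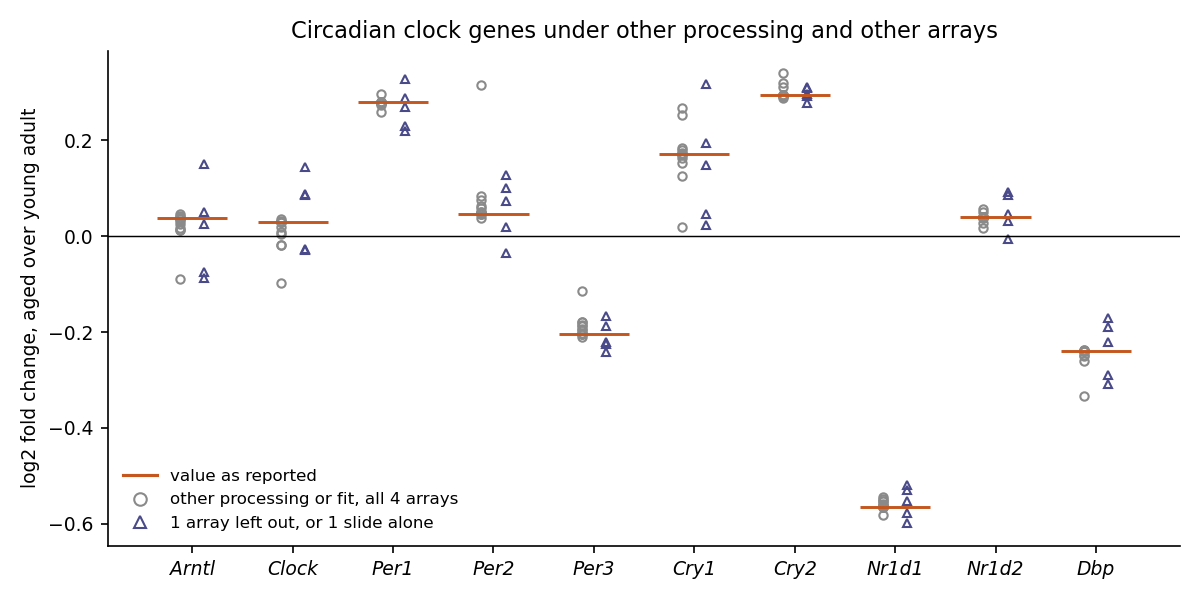
Log2 fold change (aged over young adult) of each circadian clock gene as reported (bar), under other processing or fits of all 4 arrays (circles), and with 1 array left out or 1 slide alone (triangles). *Nr1d1* stays between -0.60 and -0.52 in every case drawn, *Per1* and *Cry2* stay above 0.2, and *Arntl*, *Clock*, *Per2* and *Nr1d2* appear on both sides of 0.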

How the data were processed

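Septal nasal mucosa was profiled with 4 Agilent single-color arrays, 2 for each age. The authors deposited the output of Feature Extraction 11.0.1.1, which gives for every spot its median intensity, the median intensity of the local background and quality flags. The deposited values are not normalized between arrays. The array design refers to the mm9 build, and no probe coordinates were used. From these values, normexp with an offset of 0 (limma 3.58.1, R 4.3.3) removed the background, and spots that were controls or carried an outlier flag (88 to 118 flagged per array) were dropped. Intensities on the log2 scale were then quantile normalized and averaged over all probes carrying one symbol. Accessions matched a RefSeq table (GRCm38.p6) for 32994 of 56605 probes. The other probes were kept under their array identifiers, each counted as a gene. No spot was saturated, and 63.1 to 76.8% of spots were well above background. The number of arrays limits the precision.

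Ages were compared by lmFit and eBayes on all genes without covariates. The genes named were the 10 clock genes, 11 listed clock-related genes (1 of them is not reported here) and any other called, the genes called in each inducible list or otherwise the 2 with the largest change, and the 5 genes nearest to the clock gene that changed most. *Cipc*, *Csnk1d*, *Csnk1e*, *Gsk3b*, *Pou1f1* and the overlapping genes were named after their values were seen. Members, lists and rules were chosen with earlier results of these data known. The fit was also run on simulated arrays built from the means and spreads of these data. The changes put in were larger than that of *Nr1d1* and the noise was independent between arrays. The simulation therefore does not bear on changes of the size of *Nr1d1* or on shared slides. The main fit did not pair arrays by replicate number. The arrays numbered 1 shared a slide, with median backgrounds of 67 (young adult) and 63 (aged). Those numbered 2 were on separate slides, with median backgrounds of 32 (young adult) and 39 (aged).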

Additional observations from a re-analysis of the deposited data

How the results depend on the processing

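Of the 10 circadian clock genes, 1 was called as reported. The count was 3 with a background offset of 50, with no background correction and with the scanner software's signal after quantile normalization (*Per1* and *Cry2* higher, *Nr1d1* lower), and 5 with dim probes left out or an intensity trend (*Per3* and *Dbp* lower as well). It was 0 at an FDR below 0.05, with the added limits of a mean of 100 and a fold change of 1.5, with the replicate number as a block, and without any 1 array (0 to 0). Of the other clock-related genes the count was 1 as reported, 4 with an offset of 50, 3 with no background correction, 4 with the scanner signal after quantile normalization, 6 with dim probes left out, 2 with the brightest probe per gene, 5 with an intensity trend, and 0 under the same limits, the block and without any 1 array. Over all genes the 1817 calls became 2989 with an offset of 16, 4582 with an offset of 50, 4027 with no background correction, 4372 with the scanner signal after quantile normalization, 7249 with dim probes left out, 7130 with an intensity trend, 895 with the limits on mean and fold change, and 0 at an FDR below 0.05, with the replicate block and without any 1 array (5990 genes had an unadjusted *P* below 0.05, and 5197 with the block in limma). The labels share replicate numbers between ages, but same-numbered arrays did not deviate together (correlation -0.0779 over all genes, and 0.0817 over genes with a mean of at least 100). Signs turned for *Arntl* with the brightest probe (-0.0894), for *Clock* with an offset of 50 (-0.0174), no background correction (-0.018) and dim probes left out (-0.0974), for *Rora* with the brightest probe (-0.067), and for *Csnk1e* with cyclic loess (-0.00412). With 1 array left out, the log2 fold change ranged from -0.0745 to 0.15 for *Arntl*, -0.0291 to 0.0878 for *Clock*, -0.0346 to 0.13 for *Per2*, -0.0059 to 0.0855 for *Nr1d2*, -1.05 to 0.11 for *Npas2*, -0.0448 to 0.0643 for *Csnk1e* and -0.0573 to 0.54 for *Hlf*. The difference between the arms was -0.14 as reported, -0.0992 with an offset of 50, -0.0923 with no background correction, -0.078 with dim probes left out, -0.0400 with the brightest probe, -0.19 with *Cry1* added and -0.0547 with wider arms. The cause of these shifts was not tested, apart from fewer genes being tested with dim probes left out and fewer arrays in the fits without 1 array, where the lone array of an age is assumed to vary like the other age. The slide as a random block could not be fitted with 4 arrays. Probes near background, such as 1 of *Clock*, carry little information on the direction of a change.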

Other observations

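The casein kinase genes *Csnk1d* and *Csnk1e* and the glycogen synthase kinase gene *Gsk3b*, whose products phosphorylate clock proteins, were not called. Their log2 fold changes were 0.05 ± 0.0747 (limma, FDR = 0.788), 0.0098 ± 0.0879 (FDR = 0.970) and 0.08 ± 0.0831 (FDR = 0.712). Each was smaller than that of *Per1* (0.28) and *Cry2* (0.29).

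Some clock genes overlap another gene on the chromosome in the RefSeq table. *Sphk2*, which overlaps *Dbp*, measured 4608 and 4924 in the young adult pools, against 4786 and 5018 in the aged pools, with a log2 fold change of 0.04 ± 0.0863 (limma, FDR = 0.867), where *Dbp* had -0.24. *Uts2*, which overlaps *Per3*, was well above background on 0 arrays.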
